A study of Mus musculus with 11 samples.

Results

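Hyaluronan is the long, unbranched sugar polymer of the extracellular matrix, and 10 genes that make it, break it down or bind it are described here in mouse pancreatic tumors grown in hosts with or without protein kinase N2 (PKN2). They are the synthases Has1, Has2 and Has3, the degradation genes Hyal1, Hyal2 and Cemip, the receptors Cd44 and Hmmr, and the matrix-binding genes Vcan and Tnfaip6. The genes were listed by name for their known roles, with earlier results of these data known, and were read from a table of raw counts for 54232 genes with the symbols of the GENCODE M21 annotation. All 10 were among the 16536 genes that passed a filter on low counts and were tested.

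Bulk RNA sequencing had been done on 6 knockout (KO) and 5 wild-type (WT) orthotopic tumors. All hosts were C57BL/6 females, littermates matched for age, heterozygous for RosaCreERT and given the same course of tamoxifen, and they differed in Pkn2, which was PKN2 fl/fl in the KO and PKN2 +/+ in the WT. Both groups then received the same TB32048 cells, a carcinoma line from a female KPC mouse with an intact Pkn2 gene, in Matrigel in the pancreas. The Cre is driven from the Rosa26 locus and acts in host cells of every type, so the deletion was not limited to fibroblasts, and the carcinoma cells kept the gene. Each sample is a separate tumor in the labels, and the p-values below measure the spread between tumors of 1 implanted line.

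Hyaluronan is made at the plasma membrane by hyaluronan synthases, which join UDP-glucuronic acid and UDP-N-acetylglucosamine and push the growing chain out of the cell. Chains outside the cell are held in place by proteoglycans such as versican and by cell-surface receptors such as CD44, and are cut by hyaluronidases and by CEMIP before their fragments are taken up and degraded in lysosomes. Pancreatic ductal carcinoma is known for a stroma rich in hyaluronan, which is made by fibroblasts and by carcinoma cells. Only transcripts were measured here, and in bulk tissue fewer cells of a type and less RNA per cell cannot be told apart.

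The libraries held between 16294128 and 31121422 counts, and a gene with 3 counts stood at 0.0887 to 0.25 CPM, its count relative to the library total after TMM scaling in edgeR. Pkn2 itself was at 96.6 ± 9.34 CPM in the KO tumors (SD, n = 6). In the WT tumors it was at 96.7 ± 34.6 CPM (SD, n = 5). These levels do not check the genotype labels, since the carcinoma cells carry the gene and the part from host cells was not measured. Why the means were this close was not tested. WT D and WT E (138 and 129 CPM) lay above every KO tumor (80.1 to 108 CPM) and WT A, B and C (69.2, 62.9 and 84.4 CPM) lay below or among them, and without those 3 the log2 difference in Pkn2 was -0.46 ± 0.12 (edgeR adjusted p = 0.131). WT A, WT B and WT C stood apart from the other libraries. Ribosomal RNA genes, here Gm42418 and the mitochondrial mt-Rnr1 and mt-Rnr2, took 1.31%, 6.39% and 1.40% of their counts, against 0.241% to 0.765% in the other 8. In these 3 libraries, counts also correlated negatively with gene length relative to the mean of the libraries (Spearman's rho across genes of -0.496, -0.446 and -0.171, against 0.1 to 0.372). All 3 are WT, so the genes with the smallest p-values are also given without them. Carcinoma epithelial and fibroblast markers were present in every tumor, whereas 3 of 6 markers of acinar cells, the main cells of normal pancreas (Cpa1, Pnlip and Cel), were at 0 in some, and the acinar sum was highest in WT E (1710 CPM) and KO E (616 CPM).

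None of the 10 hyaluronan genes passed the test between KO and WT tumors. The smallest p-values belonged to Cemip and Vcan, with higher means in the KO tumors, and to Hyal2 and Hyal1, with lower ones, while Has3, Cd44, Hmmr and Tnfaip6 differed by less than 0.1 on the log2 scale. By edgeR's quasi-likelihood test with Benjamini-Hochberg adjustment over all genes tested, 0 of 10 had an adjusted p under 0.05, against 0.0181% of all genes. At an unadjusted p under 0.05 there were 2 of the 10, against 24.0% of all genes. Cemip was the member higher in KO at that level, as 8.57% of all genes were, and Hyal2 the member lower, as 15.5% of all genes were. DESeq2 called 0 of the 10 after adjustment, against 8.06% of the genes it tested. In no gene of the 10 did the KO and WT tumors separate without overlap, which 3.6% of all genes did.

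**Figure D1:**
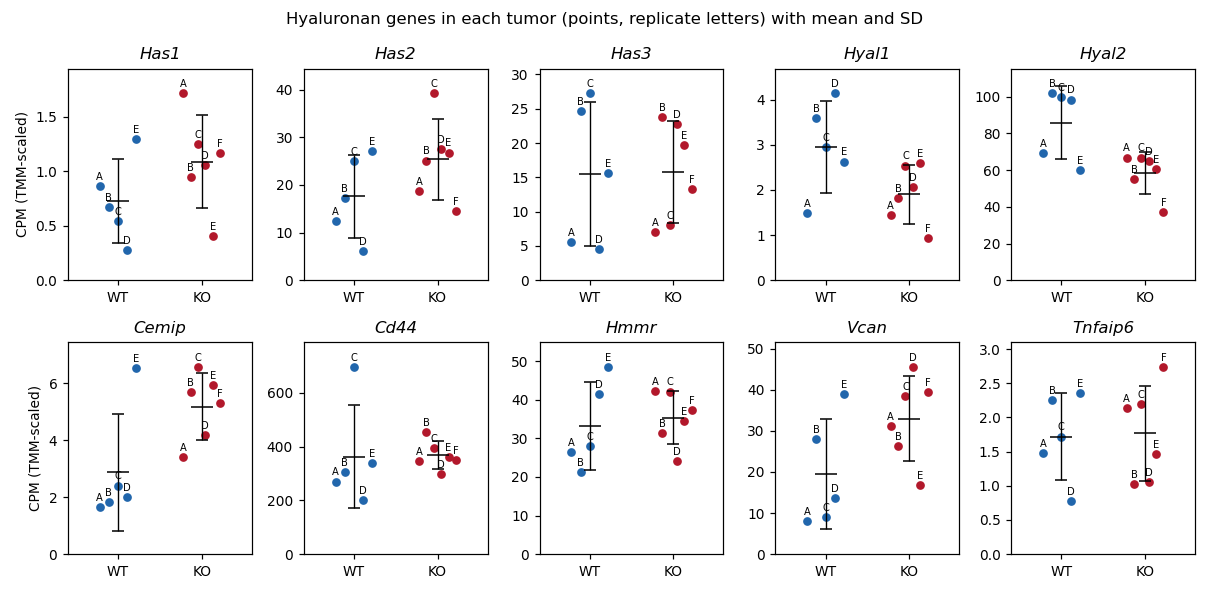
CPM of each of the 10 hyaluronan genes in every tumor, WT in blue and KO in red, with replicate letters, and the mean and SD of each group in black; each panel has its own axis from 0. WT E lies among the KO tumors for Cemip (6.53 CPM), Vcan (38.9 CPM) and Hyal2 (59.8 CPM), and the groups overlap in every panel.

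A median log2 difference (KO minus WT) of 0.07 was found over the 10 genes, beside -0.03 over all genes tested. The value was above 0 in 8 of the 10, beside 48.0% of all genes. The median standard error of the 10 was 0.36 on the log2 scale, and the 95% interval held 0 for 8 of the 10, all but Hyal2 and Cemip.

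**Figure D2:**
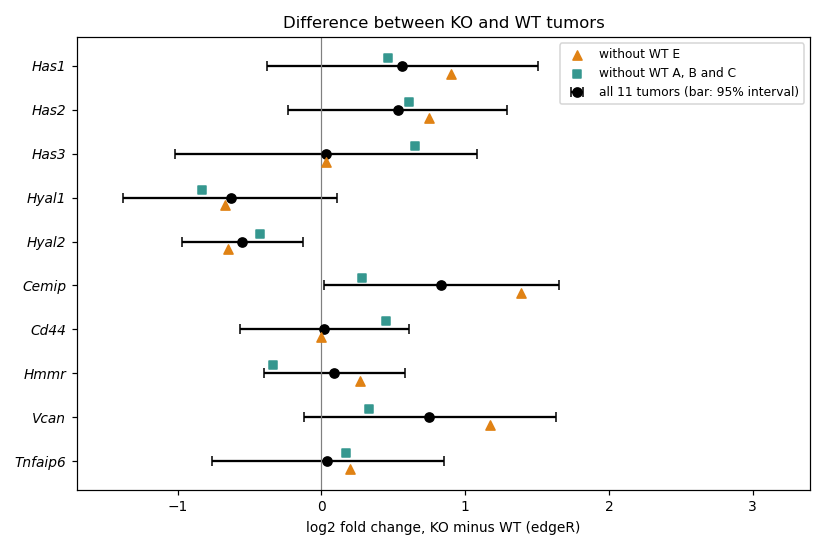
Log2 fold change of each gene, KO minus WT, from edgeR with all 11 tumors (black points; bars are 95% intervals), without WT E (triangles) and without WT A, B and C (squares). The interval lies on one side of 0 for Hyal2 (-0.97 to -0.13) and Cemip (0.02 to 1.65), and leaving out WT E moves Cemip to 1.39 while leaving out WT A, B and C moves it to 0.28.

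Has2, the synthase that makes most of the hyaluronan of many mesenchymal tissues, was the most abundant of the synthases in every tumor. Its gene lies on the minus strand at chr15:56665627-56694539 (GRCm38, 1-based). Per kilobase of exon, its mean over the 11 tumors was 5.15 CPM, against 2.46 CPM for Has3 and 0.205 CPM for Has1. Has2 took 68.3% ± 10.3 of the length-scaled level of the 3 synthases in the KO tumors (SD, n = 6) and 63.2% ± 9.46 in the WT tumors (SD, n = 5), with a lowest share of 50.2% in WT B. Has3 took 28.6% ± 10.8 and 34.1% ± 10.7, and Has1 3.13% ± 1.98 and 2.74% ± 1.4, in the same order of groups. The order Has2, Has3, Has1 thus held in all 11 tumors, and the shares of the 2 groups differed by less than their spread.

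The level of Has2 in the WT tumors was 12.4, 17.2, 25.0, 6.07 and 27.1 CPM (A to E), and in the KO tumors it ran from 14.6 to 39.3 CPM with a median of 26.0 CPM. WT D was the lowest of all, and 2 KO tumors, C and D, lay above the highest WT value. KO exceeded WT by a log2 difference of 0.53 ± 0.35 (SE; 95% interval -0.23 to 1.29; edgeR adjusted p = 0.369). With an interval this wide, a difference of the size seen was not detectable with these tumors.

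Has3, a synthase known for making shorter chains, was spread 5.95-fold between the lowest and the highest tumor (chr8:106870242-106884566, plus strand). WT A to E had 5.51, 24.7, 27.3, 4.58 and 15.6 CPM, and the KO tumors from 7.04 to 23.8 CPM with a median of 16.5 CPM. Each group held both low and high tumors, and the log2 difference was 0.03 ± 0.49 (SE; 95% interval -1.02 to 1.08; edgeR adjusted p = 0.978), with a sign that turned to -0.18 when gene length was modelled. Has1, at chr17:17843323-17855205 on the minus strand, was near the limit of what could be seen. It had 7 to 49 counts per tumor, with 0.406 to 1.72 CPM in KO and 0.274 to 1.3 CPM in WT, a log2 difference of 0.56 ± 0.44 (SE; edgeR adjusted p = 0.437). Its standing relative to the other genes tested was low, with a mean level per kilobase above that of 4.46% of them, against 51.4% for Has2.

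Hyal2, a hyaluronidase anchored to the cell surface that cuts long chains into fragments, had the smallest p of the 10 genes. It is encoded at chr9:107567945-107572779 on the plus strand and was well covered, with 922 to 2513 counts per tumor. The WT tumors had 69.1, 102, 99.7, 98.4 and 59.8 CPM (A to E), and the KO tumors ran from 37.2 to 66.8 CPM with a median of 62.7 CPM. WT B, WT C and WT D lay well above every KO tumor, WT A lay just above the highest of them, and WT E lay among them. The log2 difference was -0.55 ± 0.19 (SE; 95% interval -0.97 to -0.13), with an unadjusted p of 0.0142 and an adjusted p of 0.127 by edgeR.

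Without WT E the same test gave -0.65 ± 0.19 for Hyal2, with an adjusted p of 0.045, in a fit that called 11.1% of all genes. Without WT A, B and C it gave -0.43 ± 0.24 (adjusted p = 0.393). The call for Hyal2 thus depended on 1 WT tumor. On the log2 scale, the share of ribosomal RNA counts moved with Hyal2 over the 11 tumors (Pearson's r = 0.731, Spearman's rho = 0.891, r = 0.563 without the 2 tumors farthest from the median share). With the share itself, as a percentage, in the fit the difference in Hyal2 was -0.43 ± 0.2 (edgeR adjusted p = 0.44).

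Hyal1, the hyaluronidase of lysosomes that cuts the fragments further, lies 4147 bases downstream of Hyal2 on the same strand (chr9:107576927-107581710). Its level per kilobase was far lower, with a mean of 0.63 CPM against 21.5 CPM for Hyal2, and the ratio of the 2 genes was close in both groups, 37.8 ± 10.1 in KO (SD, n = 6) and 35.7 ± 11.3 in WT (SD, n = 5). In WT A to E, Hyal1 was at 1.48, 3.59, 2.95, 4.15 and 2.63 CPM, and in the KO tumors at 0.927 to 2.6 CPM with a median of 1.95 CPM. The log2 difference was -0.63 ± 0.34 (SE; 95% interval -1.38 to 0.11; edgeR adjusted p = 0.271), on 23 to 106 counts per tumor. Without WT A, B and C the difference in Hyal1 was larger, at -0.83 ± 0.39 (edgeR adjusted p = 0.316). The span of Hyal1 shares 2824 bases with Naa80 and 893 bases with Hyal3 on the same strand, so its count is uncertain.

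By Pearson's r, Hyal1 and Hyal2 were the pair of the 10 genes most alike over the tumors, with r = 0.812 and rho = 0.573 for log2 CPM (n = 11), r = 0.709 without the 2 tumors farthest from the median of Hyal1, and r = 0.725 after the mean of each group was taken out. By Spearman's rho the pair most alike was Has2 and Cemip (rho = 0.782, r = 0.673). Hyal2 and Cemip had the lowest r (r = -0.708, rho = -0.718), but with group means taken out theirs was -0.467, against -0.556 for Has1 and Hyal1. These are descriptions over all pairs of the 10 genes, measured in the same libraries.

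Cemip, whose product binds hyaluronan and is needed for its depolymerization by fibroblasts, showed the largest difference of the 10 genes. The gene is on the minus strand at chr7:83932857-84086502, and the tumors held 22 to 221 of its counts. The WT tumors had 1.65, 1.84, 2.41, 2.00 and 6.53 CPM (A to E), and the KO tumors ran from 3.4 to 6.58 CPM with a median of 5.5 CPM. WT A to D lay below every KO tumor, whereas WT E lay above all KO tumors but 1. Between groups the log2 difference came to 0.83 ± 0.38 (SE; 95% interval 0.02 to 1.65), with an unadjusted p of 0.046 and an adjusted p of 0.2 by edgeR.

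Without WT E, the difference in Cemip was 1.39 ± 0.28 on the log2 scale with an edgeR adjusted p of 0.0279, and Cemip and Hyal2 were then the 2 of the 10 genes that passed, against the 11.1% of all genes given above. The same 2 of 10 separated without overlap once WT E was set aside, against 9.03% of all genes. Without WT A, B and C, the difference in Cemip was 0.28 ± 0.42 (adjusted p = 0.759). The size of the Cemip difference therefore depended on which WT tumors were in the fit. It was large against A to D and small against D and E, of which only WT E (6.53 CPM) lay among the KO tumors. WT D (2.00 CPM) lay below all of them. WT A, B and C are also the libraries that stood apart in ribosomal RNA and gene length. Cemip rose with the length correlation of the libraries (r = 0.765, rho = 0.7 over the 11 tumors). The parts of WT E and of these library traits cannot be told apart here and were not tested.

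Vcan encodes versican, a large proteoglycan of the matrix whose head domain binds hyaluronan. As for Cemip, its log2 difference was larger without WT E and smaller without WT A, B and C. The gene is read from the minus strand of chr13:89655312-89742509. The WT tumors had 8.16, 28.0, 9.09, 13.7 and 38.9 CPM (A to E), and the KO tumors ran from 16.8 to 45.6 CPM with a median of 34.8 CPM. WT A, C and D lay below every KO tumor, and WT B and E lay among them. For Vcan the log2 difference was 0.75 ± 0.4 (SE; 95% interval -0.12 to 1.63; edgeR adjusted p = 0.269), it was 1.17 ± 0.38 without WT E (adjusted p = 0.0615) and 0.33 ± 0.43 without WT A, B and C (adjusted p = 0.72).

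Cemip and Vcan had the largest positive differences, and their levels were correlated over the tumors (r = 0.657, rho = 0.536, n = 11; r = 0.449 with group means taken out), so the 250 bases before the RefSeq start of each gene are shown (GRCm38.p6, both minus strand, printed 5′ to 3′ along the gene). The Cemip window is chr7:84086506-84086755 and the Vcan window is chr13:89742513-89742762. Capitals mark TATAAA, the core of a TATA box.
Cemip: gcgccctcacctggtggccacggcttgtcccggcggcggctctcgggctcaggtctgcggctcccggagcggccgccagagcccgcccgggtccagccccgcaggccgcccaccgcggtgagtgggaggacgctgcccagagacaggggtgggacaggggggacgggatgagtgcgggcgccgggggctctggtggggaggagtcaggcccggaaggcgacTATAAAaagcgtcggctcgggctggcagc
Vcan: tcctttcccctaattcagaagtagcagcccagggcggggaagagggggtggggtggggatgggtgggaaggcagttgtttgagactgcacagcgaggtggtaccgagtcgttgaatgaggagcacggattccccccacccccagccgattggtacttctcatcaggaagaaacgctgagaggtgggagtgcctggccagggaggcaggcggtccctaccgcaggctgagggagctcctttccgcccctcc
Of these bases, 75.2% in Cemip and 62.4% in Vcan are G or C, against a median of 52.4% over the windows of all 32851 RefSeq promoters. On both strands, TATAAA was found once in Cemip and not in Vcan, and 12.4% of all windows hold it. The TEAD core GGAATG (12.6% of all windows) and the AP-1 core TGANTCA (6.75%) are in neither window. Among the windows of the other members with a RefSeq entry, Hyal2 and Tnfaip6 hold the TEAD core and Tnfaip6 holds the AP-1 core. Those of Has1, Hyal1, Cd44 and Hmmr hold neither core.

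Cd44, the main cell-surface receptor of hyaluronan, was the most abundant of the 10 genes, with a mean of 54.0 CPM per kilobase, above that of 93.6% of the genes tested. It is encoded at chr2:102811141-102901665 on the minus strand. In WT A to E it was at 270, 307, 697, 202 and 339 CPM, and the KO tumors ran from 298 to 455 CPM with a median of 355 CPM. WT C was the highest and WT D the lowest of all 11, so that the WT range enclosed the KO range. Cd44 differed by 0.02 ± 0.27 on the log2 scale (SE; 95% interval -0.57 to 0.61; edgeR adjusted p = 0.972), and the sign turned with the scaling, to -0.17 when gene length was modelled.

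Hmmr encodes RHAMM, which binds hyaluronan at the cell surface and acts on the spindle inside dividing cells (chr11:40701395-40733422, minus strand). The WT tumors had 26.5, 21.2, 28.1, 41.4 and 48.5 CPM (A to E), and the KO tumors ran from 24.2 to 42.3 CPM with a median of 35.9 CPM. WT D and WT E were high and WT A, B and C low, and the KO tumors were spread over both. In log2 terms KO and WT differed by 0.09 ± 0.23 (SE; 95% interval -0.4 to 0.58; edgeR adjusted p = 0.837), and it was -0.34 ± 0.21 without WT A, B and C (adjusted p = 0.419) and -0.12 ± 0.21 when the ribosomal RNA share entered the fit. Over the 11 tumors the level of Hmmr moved with the summed level of 9 markers of dividing cells (r = 0.894, rho = 0.882, r = 0.775 without the 2 tumors farthest from the median of that sum), which ran from 509 to 824 CPM in KO and from 493 to 749 CPM in WT.

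Tnfaip6 encodes TSG-6, an enzyme of inflamed tissue that moves heavy chains from inter-alpha-trypsin inhibitor onto hyaluronan (chr2:52038009-52056686, plus strand). Its WT values were 1.48, 2.25, 1.72, 0.783 and 2.36 CPM (A to E), and the KO tumors ran from 1.02 to 2.74 CPM with a median of 1.8 CPM. The groups overlapped over most of their ranges, with 1 KO tumor above the highest WT value, and the log2 difference was 0.04 ± 0.37 (SE; 95% interval -0.76 to 0.85; edgeR adjusted p = 0.952) on 20 to 80 counts per tumor.

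**Figure D3:**
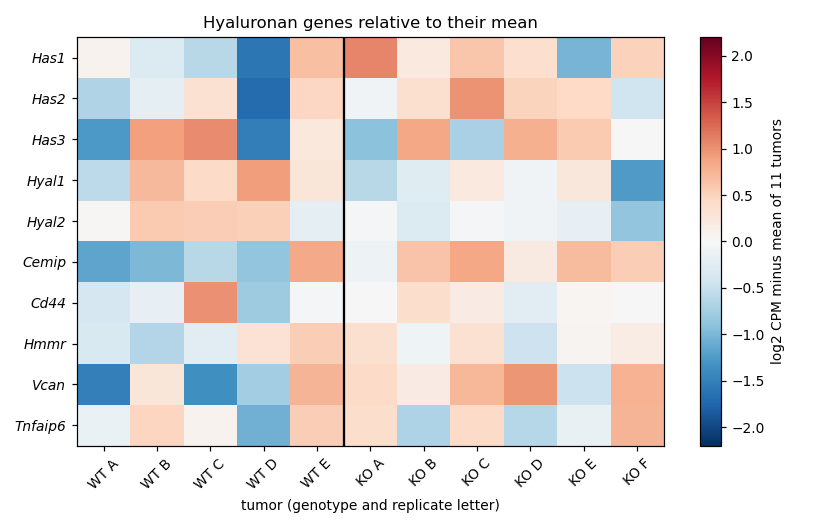
Log2 CPM of each gene (rows) in each tumor (columns, WT left and KO right of the line) minus the mean of that gene over the 11 tumors, on a scale from blue (lower) to red (higher). Deviations run from -1.7 (Has2 in WT D) to 1.07 (Has1 in KO A), and the WT E column is red for Has1, Has2, Cemip and Vcan, as most KO columns are. WT E is also above the mean for Hmmr (0.54), Tnfaip6 (0.53), Hyal1 (0.26) and Has3 (0.24). It is below the mean for Hyal2 (-0.19) and Cd44 (-0.04).

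Ordered by level per kilobase, the 10 genes stood as Cd44 (54.0 CPM), Hyal2 (21.5), Hmmr (6.32), Has2 (5.15), Has3 (2.46), Vcan (1.86), Tnfaip6 (1.02), Hyal1 (0.63), Cemip (0.338) and Has1 (0.205), each a mean over the 11 tumors. The neighbours Hmmr and Has2, Has2 and Has3, Has3 and Vcan, Vcan and Tnfaip6, Tnfaip6 and Hyal1, Hyal1 and Cemip, and Cemip and Has1 overlapped in their ranges over tumors. Cd44 did not overlap Hyal2 in the KO tumors (43.9 to 67.1 against 11.3 to 20.3 CPM per kilobase). In the WT tumors the ranges of these 2 touched (29.9 to 103 against 18.2 to 31.0).

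The other genes of the pathway were a list of 38 made from known roles, of which 29 were tested and 2, the hyaluronidases Hyal4 and Spam1, had 0 counts in every tumor. None of the 29 passed at an adjusted p under 0.05 in edgeR. At an unadjusted p under 0.05, 2 were higher in KO and 1 was lower, against the 8.57% and 15.5% of all genes given above. Their median log2 difference was 0.1, with 16 of 29 above 0, beside 48.0% of all genes.

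Of 8 genes that supply the sugar nucleotides, Gnpnat1, which acetylates glucosamine 6-phosphate on the way to UDP-N-acetylglucosamine, had the smallest p. It was at 39.2, 65.6, 37.0, 34.4 and 37.1 CPM in WT A to E and at 27.1 to 33.6 CPM in the KO tumors, median 28.4 CPM. Every KO tumor lay below every WT tumor, as in the 3.6% of all genes without overlap given above. Gnpnat1 thus differed by -0.55 ± 0.18 on the log2 scale (SE; edgeR adjusted p = 0.112). It was -0.34 without WT B (adjusted p = 0.217), -0.28 with the ribosomal RNA share in the fit (0.4) and -0.29 ± 0.12 without WT A, B and C (0.264). Ugdh, which makes UDP-glucuronic acid and was the most abundant of these 8 in CPM, differed by 0.08 ± 0.2 on the log2 scale (adjusted p = 0.835).

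Among the other degradation genes, all 4 tested had a value above 0, beside 48.0% of all genes, and none an unadjusted p under 0.05. Hexa, a subunit of the lysosomal hexosaminidase that trims hyaluronan fragments, differed by 0.17 ± 0.19 on the log2 scale (adjusted p = 0.587). Of 6 other receptors, Tlr4, an innate immune receptor that hyaluronan fragments can engage, was at 17.3, 17.2, 17.0, 28.3 and 23.9 CPM in WT A to E and at 25.8 to 35.4 CPM in the KO tumors, median 29.1 CPM. The 3 WT libraries that stood apart were its lowest values, and WT D lay among the KO tumors. Tlr4 thus differed by 0.51 ± 0.18 on the log2 scale (SE; edgeR adjusted p = 0.125). Without WT A, B and C it was 0.18 ± 0.15 (adjusted p = 0.562), and without WT D it was 0.65 (adjusted p = 0.0481). Stab1, a scavenger receptor of macrophages and endothelium that takes up hyaluronan, differed by 0.42 ± 0.33 (adjusted p = 0.446), by 0.87 ± 0.26 without WT E (adjusted p = 0.0496) and by -0.19 ± 0.34 without WT A, B and C (adjusted p = 0.798).

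Of 16 other matrix-binding genes, 10 were tested. Itih5, a heavy chain of the inter-alpha-trypsin inhibitor family, was at 3.12, 0.501, 8.35, 4.27 and 8.45 CPM in WT A to E and at 7.67 to 17.5 CPM in the KO tumors, median 11.6 CPM. WT C and WT E lay among the KO tumors, and WT B held only 6 counts. Itih5 thus differed by 1.26 ± 0.51 on the log2 scale (SE; edgeR adjusted p = 0.163). Without WT A, B and C it was 0.91 ± 0.41 (adjusted p = 0.302). Acan, the aggrecan proteoglycan, had the highest CPM of these genes and differed by 0.39 ± 0.45 (adjusted p = 0.619), by 1.05 ± 0.35 without WT E (adjusted p = 0.0661) and by -0.14 ± 0.57 without WT A, B and C (adjusted p = 0.922). Has2os, a transcript antisense to Has2 that shares 4596 bases with it on the opposite strand, was at 0.569 to 1.16 CPM in KO and 0.68 to 2.84 CPM in WT, a log2 difference of -0.76 ± 0.4 (adjusted p = 0.26) that turned to 0.26 ± 0.37 without WT A, B and C (adjusted p = 0.75).

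**Figure D4:**
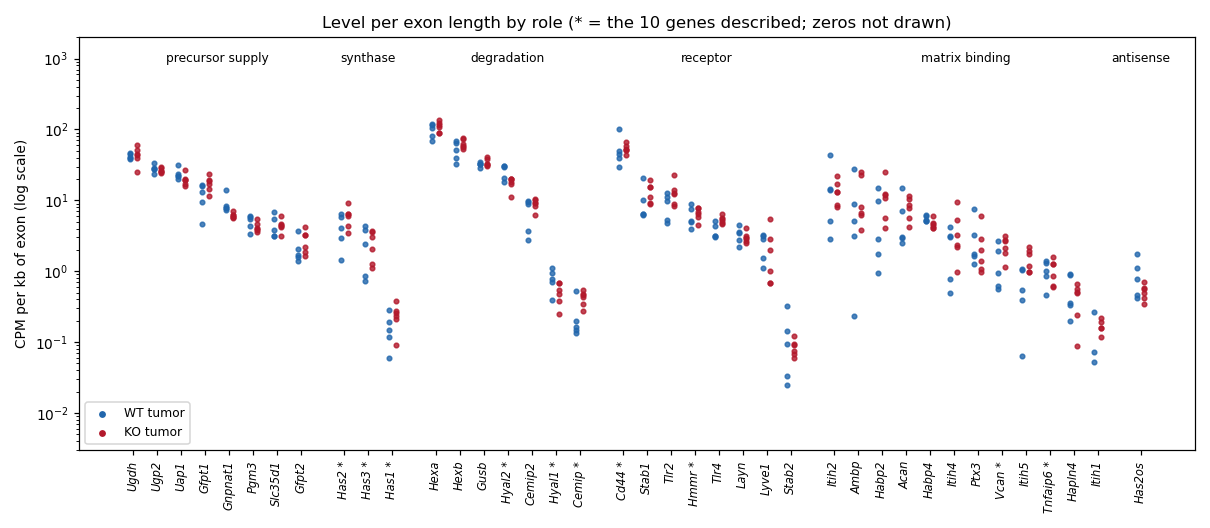
CPM per kilobase of exon (log axis) of the 10 hyaluronan genes, marked with a star, and the 29 other genes of the pathway that were tested, grouped by role, with 1 point per tumor (WT blue, KO red; values of 0 are not drawn). Hexa is the highest by mean (105 CPM per kilobase) and Stab2 the lowest (0.103), and the blue and red points overlap for every gene but Gnpnat1.

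For each of the 10 genes, the transcripts whose log2 CPM was most like it over the 11 tumors were found among all genes tested, as a description of these libraries. For Has2 these were Alpl (r = 0.953), Itga5 (0.927) and Tnfrsf23 (0.924), and for Cemip they were Plat (0.931), Thbd (0.924) and Plxnd1 (0.922). Vcan was most like Ccdc8 (0.943), Rnf144a (0.942) and Col6a3 (0.939), the last a chain of collagen VI, and for Hmmr they included Ncapg2 (0.94) and Kif15 (0.924). For Cd44 the nearest were S100a7a (0.926), Lrrc8a (0.921) and Tshz1 (0.913), for Has3 Rapgef3 (0.899), Lgr6 (0.893) and Gja1 (0.874), and for Has1 Trim30b (0.882), Gm15987 (0.858) and Prdm16 (0.857). Hyal1 was nearest to Aaed1 (0.946), Gpbar1 (0.904) and Tbp (0.9), Hyal2 to Nfs1 (0.931), 2310030G06Rik (0.918) and Abcd4 (0.913), and Tnfaip6 to Gm10425 (0.883), Grk5 (0.872) and Rab26 (0.839). With group means taken out, these r values lay between 0.839 and 0.956.

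Markers of fibroblasts moved with Vcan and Cemip. The summed level of 10 such markers, none of them at 0 in any tumor, was 4580 to 9590 CPM in KO and 2530, 4410, 4380, 3090 and 9600 CPM in WT A to E. As for Vcan and Cemip, WT E was the highest WT tumor. Across the 11 tumors the sum had r = 0.843 and rho = 0.864 with Vcan (r = 0.792 with group means taken out, 0.822 without the 2 tumors farthest from its median) and r = 0.799 and rho = 0.845 with Cemip (0.74 and 0.705). None of the 10 markers passed at an adjusted p under 0.05 in edgeR, and 0 had an unadjusted p under 0.05 in either direction. The log2 difference was above 0 in 8 of 10, beside 48.0% of all genes.

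Cemip also moved with the summed level of 5 markers of blood endothelium (r = 0.858, rho = 0.745), which was 159 to 224 CPM in KO and 101 to 233 CPM in WT, and with the share of ribosomal RNA counts (r = -0.803, rho = -0.791). Vcan was opposed to the 7 carcinoma epithelial markers (r = -0.754, rho = -0.627), whose sum was 2680 to 5450 CPM in KO and 3090 to 9320 CPM in WT. Of these endothelial and epithelial markers too, 0 passed at an adjusted p under 0.05 and none was at 0 in any tumor. The 5 B cell markers, none of them at 0, summed to 33.6 to 102 CPM in KO and 6.26 to 30.3 CPM in WT. All 5 were higher at an unadjusted p under 0.05 in edgeR, against 8.57% of all genes, and 0 passed after adjustment. Their sum had r = 0.765 with Cemip and r = 0.692 with Vcan (rho = 0.645 and 0.636; r = 0.472 and 0.493 with group means taken out). With the ribosomal RNA share in the fit, the log2 difference was 0.61 ± 0.38 for Cemip (edgeR adjusted p = 0.564) and 0.85 ± 0.46 for Vcan (0.497). With gene length modelled, it was 0.64 ± 0.31 for Cemip (edgeR adjusted p = 0.231), 0.49 ± 0.38 for Vcan (0.462) and -0.5 ± 0.19 for Hyal2 (0.152). The part of cell composition in these differences was not tested.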

How the data were processed

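Libraries were made from total RNA of tumor pieces by a strand-specific kit (NEB Next Ultra II Directional), and read in paired-end mode on an Illumina NovaSeq6000. Per the study's methods and the submitters' processing notes, the authors trimmed reads with Trimmomatic, aligned them to mm10 (GRCm38) with HISAT2 (2.1.0) in strand-specific mode and counted uniquely aligned reads of mapping quality above 10 over exons with HTSeq (0.11.2). They deposited raw counts per gene, and normalized values, a signal in scaled counts, which equal the raw count divided by 1 size factor per sample (0.514 to 1.42). Reads that match several genes equally well are not in these counts.

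The deposited counts were tested with edgeR (4.0.16, R 4.3.3): TMM, filterByExpr, quasi-likelihood test, no covariates, Benjamini-Hochberg adjustment over 16536 genes, threshold 0.05. The group and the replicate letter came from the sample titles. Levels are CPM on TMM-scaled libraries. Levels of different genes were compared per kilobase of merged exons. Correlations used log2(CPM + 0.1) and are given with no p. The ribosomal RNA share entered correlations on the log2 scale and fits as a percentage. The 95% intervals come from the quasi-likelihood fit and include the spread between tumors, and 3 counts were taken as the floor. The closest 2 libraries, KO B and KO E, differed by a chi-square of 33.9 per degree of freedom, so no library repeats another. That value cannot tell whether 2 libraries came from the same animal. The same letters, A to E, are used for different animals of the 2 groups, and the deviations of same-lettered tumors correlated by -0.135 to 0.118. The letters were not used as pairs, though these correlations cannot exclude a shared litter or day. The edgeR step was tested on simulated data before use.

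The 10 genes and all lists were chosen with earlier results of these data known. Named are these 10, the genes of the wider list at an unadjusted p under 0.05 or with the highest mean CPM of their role, the 3 transcripts most correlated with each of the 10, and Pkn2. 1 item that this rule names is not reported here. Alternatives were DESeq2 (1.42.0), median-of-ratios size factors, no filter, at least 10 counts in every tumor, the deposited normalized values, a replicate block, the ribosomal RNA share as a covariate, a gene length offset, leaving out each tumor, and leaving out WT A, B and C. They were extended to the wider list after seeing the data, as was the search for TATAAA in the promoters. Promoter windows came from RefSeq (GRCm38.p6), which matched 8 of the 10 genes. Has2 and Has3 had no entry.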

Additional observations from a re-analysis of the deposited data

Results flagged for a closer look

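In 36 groups examined (18 named genes in KO and in WT), 3 held a tumor separated from the rest of its group by a gap, on log2(CPM + 1), larger than Dixon's 95% value as a share of the group's range. A rate of 1 in 20 would give 1.8. Hyal2 in KO F was at 37.2 CPM (922 counts), below the 55.2 to 66.8 CPM of the other KO tumors, a gap of 0.674 of the range. Cemip in WT E was at 6.53 CPM (221 counts), above the 1.65 to 2.41 CPM of the other WT tumors (0.759 of the range). Gnpnat1 in WT B was at 65.6 CPM (786 counts), above the 34.4 to 39.2 CPM of the other WT tumors (0.799 of the range). WT E also stood at the KO level for Vcan and in the sum of fibroblast markers.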

How the results depend on the processing

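No hyaluronan gene was called (edgeR, adjusted p under 0.05) in any alternative but the fit without WT E, which called Cemip and Hyal2, so that leaving out 1 tumor gave 0 to 2. Over all genes, edgeR called 3, DESeq2 1495 and edgeR without WT E 1856, and the cause of that spread was not tested. The 2 genes at an unadjusted p under 0.05 became 0 with the ribosomal RNA covariate, 1 with the gene length offset, 0 without WT A, B and C, and 1 to 3 on leaving out 1 tumor. The count of genes without overlap between groups, 0 with all tumors, was 0 to 2 on leaving out 1 tumor and 0 on the deposited normalized values. In the wider list the 3 genes at an unadjusted p under 0.05 became 5 with the length offset, 6 without WT A, B and C, and 2 to 8 on leaving out 1 tumor. There, Stab1 had an adjusted p of 0.0496 without WT E (0.87 on the log2 scale) and Tlr4 of 0.0481 without WT D (0.65). The share of all genes at an unadjusted p under 0.05 was 24.0% in the main edgeR test and was not counted for the alternatives. Whether these counts moved with those of all genes was not tested.

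Of 189 log2 differences of the 10 genes under the alternatives, 164 kept their sign and side of the threshold and 23 turned sign, all of them in Has3, Cd44, Hmmr and Tnfaip6. With the length offset, Has3 was -0.18, Cd44 -0.17 and Ugdh -0.09. With the ribosomal RNA covariate, Cd44 was -0.03 and Hmmr -0.12. Without WT A, B and C, Hmmr was -0.34, Stab1 -0.19, Acan -0.14 and Has2os 0.26. On leaving out 1 tumor, Has3 ran from -0.2 to 0.33, Cd44 from -0.13 to 0.4, Hmmr from -0.03 to 0.27, Tnfaip6 from -0.14 to 0.2 and Ugdh from -0.04 to 0.2. The letters were not used to pair the tumors in the main test. With a replicate block, Tnfaip6 was -0.10, no other of the 10 turned sign, 0 of the 10 were called and 2 had an unadjusted p under 0.05. Has1 and Itih5 were not tested where 10 counts were required in every tumor.

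Depth was lowest for Has1, at 7 to 49 counts, and next for Tnfaip6 (20 to 80), Cemip (22 to 221) and Hyal1 (23 to 106). The other 6 had at least 117 counts in every tumor.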

Other observations

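The remaining marker lists were set beside the 10 genes as values. In CPM summed over each list, macrophage markers ran from 2060 to 3350 in KO and from 1520 to 3950 in WT, and neutrophil markers from 266 to 2240 and from 179 to 968. T cell markers ran from 52.3 to 320 in KO and from 137 to 391 in WT, lymphatic endothelial markers from 7.63 to 113 and from 33.2 to 130, and mesothelial markers from 425 to 1260 and from 591 to 1750. All of these ranges overlap between groups. At an unadjusted p under 0.05 in edgeR, 4 of 6 neutrophil and 3 of 6 macrophage markers were higher in KO, against 8.57% of all genes. At the same level 3 of 7 carcinoma epithelial markers and 1 of 6 mesothelial markers were lower, against 15.5% of all genes. The epithelial and mesothelial lists both hold Krt19, and 4 of 6 mesothelial markers had a log2 difference above 0, beside 48.0% of all genes. None of these markers passed after adjustment.

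Cemip2, the cell-surface relative of Cemip, was far more abundant per kilobase than Cemip in every tumor, by 17.0 to 26.7 times in KO and 18.1 to 53.5 times in WT. Aggrecan exceeded versican per kilobase in every tumor as well, by 1.55 to 9.92 times in KO and 1.5 to 11.1 times in WT.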
